A study of Mus musculus with 6 samples.

Results

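Cell cycle and DNA replication genes were examined in the choroid plexus, the epithelial tissue that secretes cerebrospinal fluid, of aged and young mice. They were taken from a list of 33 gene symbols, and every probe set of the array annotated to exactly 1 of these symbols was used. This gave 79 probe sets for 32 genes, out of 18193 genes on the array. Cyclin B1 (Ccnb1), the remaining symbol, had no probe set of its own in the annotation. Its expression was not analysed here, and it enters only the promoter counts. The animals were male mice of the outbred CD1 stock with no allele or drug named in the labels, and total RNA was taken from the intact plexus of the lateral ventricles. There were 3 mice aged 18 months and 3 mice aged 2 months, and each Affymetrix array held both lateral plexuses of 1 mouse. Whole tissue carries stroma, vessels, immune cells and adhering brain beside the epithelium, so that fewer cells of a type and less RNA per cell cannot be told apart.

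Division of a cell is driven by cyclin-dependent kinases. D-type cyclins activate kinases that phosphorylate the retinoblastoma protein, which releases E2F transcription factors to switch on genes for DNA synthesis. Replication origins are then licensed by Cdc6 and Cdt1, which load the Mcm helicase, and cyclin B with Cdk1 drives mitosis. Epithelial cells of the adult choroid plexus divide rarely, and D-type cyclins and Rb1 are also transcribed in many cells that do not divide.

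The age contrast was 18 months minus 2 months in log2 intensity, tested with limma. For each gene the probe set with the highest mean over the 6 arrays stood for the gene, and a gene entered the test when this mean was at least 4.92, the 40th percentile over probe sets. Of the 32 genes 22 reached it and 10 did not. Background was read from the array's 27 probe sets for bacterial transcripts. Their highest value on an array lay between 4.25 and 4.71. The epithelial marker Ttr had log2 intensities of 14.36, 14.30 and 14.25 at 18 months, against 14.48, 14.48 and 14.46 at 2 months. All 14 epithelial markers with a probe set of their own were above the bacterial controls on every array.

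None of the cell cycle genes passed the threshold. By limma 0 of the 22 tested genes had an adjusted p under 0.05, as was the case for 0.00% of all 12681 genes tested. At an unadjusted p under 0.05 there were 3 of 22, all lower at 18 months (Rad51b, Mcm6 and Rb1), against a background of 7.05% of all genes. In 6 of the 22 the 3 mice of one age all lay beyond the 3 of the other, against 13.3% of all genes tested. Of these, 5 were lower at 18 months (Ccnd2, Rb1, Mcm6, Cdk1 and Rad51b; background 6.25%) and 1 was higher (Ccnd3; background 7.06%). A difference below 0 was measured for 15 of 22 genes, or 68.2%, against 49.6% of all genes, and the median difference was -0.19 against 0.0032 for all genes. The list was chosen with earlier results of these data known, so that its shares are not an unbiased comparison with all genes. Mcm6 and Rad51b reached the brightness filter only through their values at 2 months, so that their separation by age is partly set by the filter. Among the 20 genes whose means reached it at both ages, 1 (Rb1) had an unadjusted p under 0.05, against 6.60% of all such genes, and 4 were separate, against 12.9%. At 18 months the mean log2 intensity of these 20 was 7.08, 6.95 and 6.96 in the 3 mice, against 7.06, 7.01 and 7.23 at 2 months, so that the ages overlapped. Without the filter 8 of 32 were separate, against 11.9% of 18193 genes. The mean of the 32 was 5.96, 5.79 and 5.92 at 18 months, against 6.19, 6.12 and 6.18 at 2 months, without overlap. That mean takes in genes near background, and Mcm6 and Rad51b had the largest differences in it. Over all 79 probe sets 12 were separate and lower at 18 months and 2 separate and higher, against 11.0% of all probe sets in either direction.

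**Figure D1:**
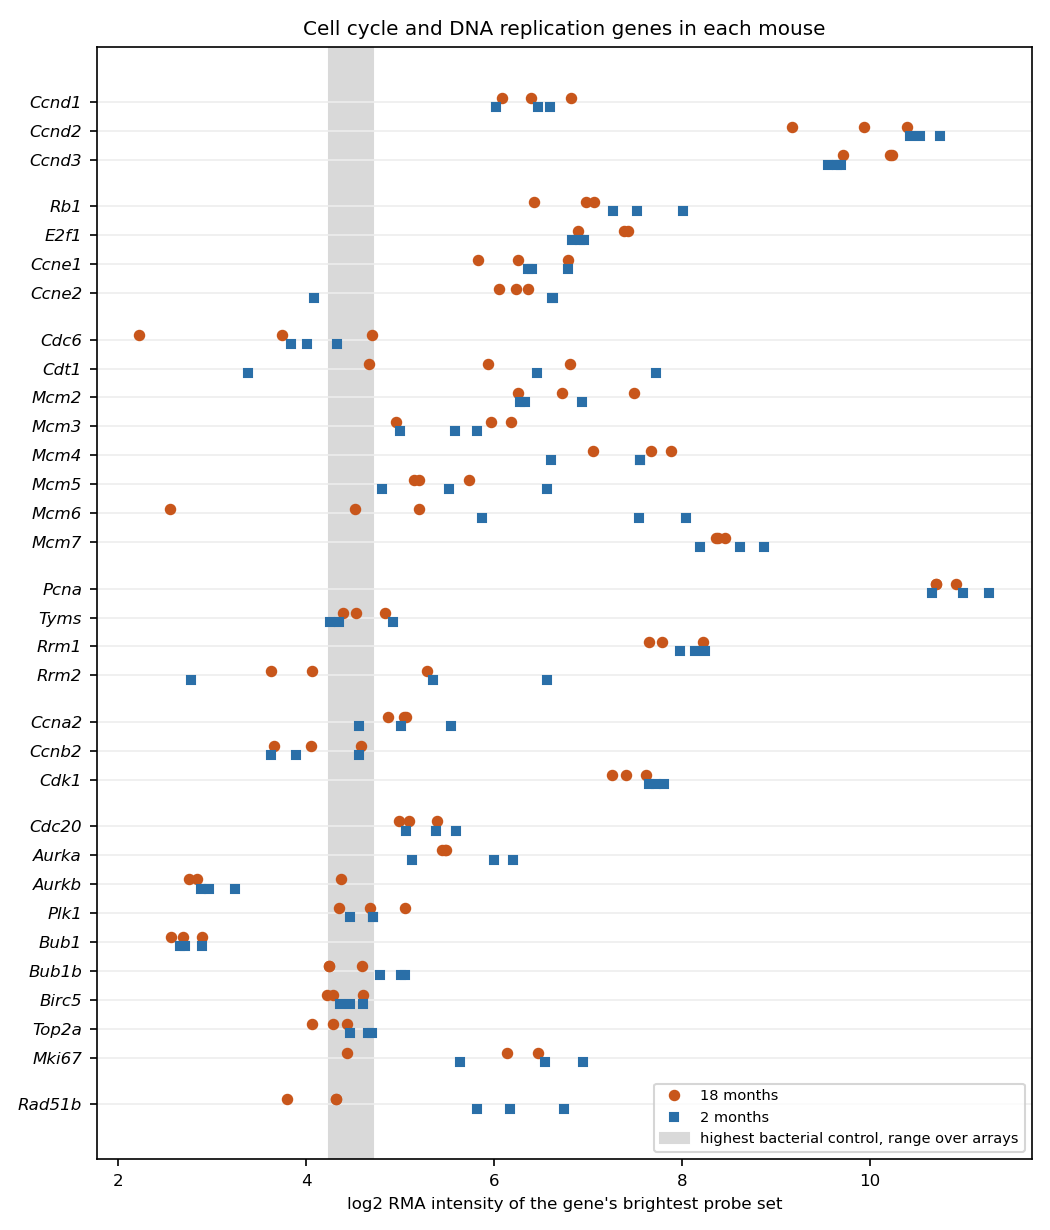
Log2 intensity of each of the 32 genes on each array (orange circles, 3 mice at 18 months; blue squares, 3 mice at 2 months), grouped by role from D-type cyclins at the top to recombination at the bottom. The grey band, 4.25 to 4.71, spans the highest bacterial control of the 6 arrays; most mitotic genes lie in or near it at both ages, while Pcna, Ccnd2 and Ccnd3 lie far above it.

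The promoters of Rad51b, Mcm6 and Cdk1 are shown, being the tested genes with separate ages, lower at 18 months, that the RefSeq promoter table (build GRCm38.p6) holds. They are set side by side to compare the control elements they carry. Each runs from 250 bases before to 50 after the start site, 5′ to 3′ on the gene's strand. Capitals mark E2F words (TTTGGCGC, TTTCGCGC, TTTCCCGC or TTTGCCGC), the cell cycle homology word TTTGAA found in genes of late division, and the CCAAT word bound by NF-Y, each on either strand. Rad51b lies at chr12:79297032-79297331, plus strand, Mcm6 at chr1:128359656-128359955, minus strand and Cdk1 at chr10:69352863-69353162, minus strand.
Rad51b: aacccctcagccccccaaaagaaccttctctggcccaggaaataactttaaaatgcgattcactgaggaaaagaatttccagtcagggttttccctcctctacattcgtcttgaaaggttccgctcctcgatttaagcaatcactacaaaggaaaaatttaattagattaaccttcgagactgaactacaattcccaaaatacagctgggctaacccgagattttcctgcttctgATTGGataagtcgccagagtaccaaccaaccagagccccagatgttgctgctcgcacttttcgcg
Mcm6: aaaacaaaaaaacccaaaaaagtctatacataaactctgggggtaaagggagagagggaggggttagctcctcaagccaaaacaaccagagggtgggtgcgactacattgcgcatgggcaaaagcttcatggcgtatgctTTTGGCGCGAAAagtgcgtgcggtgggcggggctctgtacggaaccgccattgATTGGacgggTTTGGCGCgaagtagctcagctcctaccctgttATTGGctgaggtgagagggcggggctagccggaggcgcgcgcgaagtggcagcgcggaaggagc
Cdk1: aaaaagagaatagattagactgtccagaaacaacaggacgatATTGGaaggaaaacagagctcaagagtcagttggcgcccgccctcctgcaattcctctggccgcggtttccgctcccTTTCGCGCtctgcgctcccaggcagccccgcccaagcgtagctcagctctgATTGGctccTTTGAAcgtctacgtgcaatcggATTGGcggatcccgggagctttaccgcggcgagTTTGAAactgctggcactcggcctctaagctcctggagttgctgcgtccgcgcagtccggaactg

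The Mcm6 promoter held 3 E2F words, the first and second of which overlap each other on opposite strands, and 2 CCAAT words. That of Cdk1 held 1 E2F word, 2 cell cycle homology words and 3 CCAAT words, while that of Rad51b held 1 CCAAT word and neither of the others. The Rad51b window ends in tttcgcg, the start of the E2F word TTTCGCGC, so that a word across its end would be missed. Over the 26 listed genes with a promoter in the table, Ccnb1 among them, taking the first promoter of each, 7 held an E2F word (26.9%, against 2.32% of 27025 genes). A cell cycle homology word was found in 9 (34.6%, against 18.1%) and a CCAAT word in 19 (73.1%, against 37.9%). A match is a description of letters, not a site or a cause. Mcm3, Mcm5 and Mcm7, whose ages overlapped, each held 2 E2F words.

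D-type cyclins, the growth-signal sensors of the cycle, were well above background, and their members lay on different sides of 0. Ccnd2, cyclin D2, had log2 intensities of 9.94, 10.40 and 9.17 at 18 months, against 10.42, 10.74 and 10.53 at 2 months. All 3 aged mice were below all 3 young mice, narrowly in the case of the second aged mouse. The difference was -0.73 (SE 0.32, 95% confidence interval -1.51 to 0.05, limma adjusted p = 0.722), or 1.66-fold. Without 18-month replicate 3, the lowest mouse, it was -0.40.

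Ccnd2 was read by 7 probe sets, all above the bacterial controls on every array. Every one of the 7 was lower at 18 months, by differences of -0.22 to -0.89, and 4 of them had separate ages, where 5.63% of all probe sets were separate in that direction. The widest of these, 1448229_s_at, had 9.38, 9.54 and 8.58 at 18 months, against 10.07, 10.13 and 9.96 at 2 months (adjusted p = 0.774 in a limma fit of all 45037 probe sets). The 7 probe sets read the same RNA of the same 6 mice and are not independent measurements. Their mean differed by -0.49 (limma adjusted p = 0.638).

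Ccnd3, cyclin D3, had log2 intensities of 10.22, 10.24 and 9.71 at 18 months, against 9.65, 9.55 and 9.69 at 2 months. The ages were separate, with 18-month replicate 3 only just above the young mice, and the difference was 0.42 (SE 0.20, interval -0.06 to 0.91, adjusted p = 0.746). Its other probe sets, 1 of them in the range of the bacterial controls, differed by 0.32 and 0.26, with overlapping ages. Ccnd1, cyclin D1, differed by 0.07 (SE 0.26, interval -0.55 to 0.69), and its ages overlapped. Its 3 probe sets ran from -0.55 to 0.07.

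Among the regulators of the step into DNA synthesis, Rb1, the retinoblastoma protein gene that restrains E2F, had log2 intensities of 7.06, 6.42 and 6.98 at 18 months, against 7.27, 7.52 and 8.02 at 2 months. All 3 aged mice were lower than the 3 young ones. The difference was -0.78 (SE 0.27, interval -1.44 to -0.12, unadjusted p = 0.0264, adjusted p = 0.682), or 1.72-fold. A second probe set of Rb1 lay at or below the bacterial controls on every array. E2f1, an activating E2F, had 7.43, 6.89 and 7.39 at 18 months, against 6.95, 6.83 and 6.91 at 2 months, a difference of 0.34 (SE 0.20). Its 3 probe sets, all above background, disagreed in sign, at 0.34, -0.22 and -0.52, so that no direction can be given for it. Ccne1, one of the cyclins E that start replication, differed by -0.23 (SE 0.28), with values between 5.82 and 6.78 at 18 months and between 6.36 and 6.79 at 2 months. Its paralog Ccne2 differed by 0.44 (SE 0.68), and 2-month replicate 2 stood apart with 4.08 against 6.63 and 6.62 in the other young mice. Without that mouse the difference was -0.41.

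Of the licensing factors, Mcm6, a subunit of the helicase ring, was one of the genes lower at 18 months with separate ages. The probe set that stood for it, 1438852_x_at, had 2.55, 4.52 and 5.20 at 18 months, against 7.54, 8.04 and 5.88 at 2 months. The ages were separate and both were widely spread, and only 1 of the 3 aged mice was above the bacterial controls of its array. The difference was -3.06 (SE 0.81, interval -5.01 to -1.11, unadjusted p = 0.00784, adjusted p = 0.568). Since 2 of the 3 aged values lie under the bacterial controls, its size is uncertain and no fold is given. The suffix of this probe set marks probes that may also match other transcripts. A second probe set, 1416251_at, had 3.88, 4.20 and 3.88 at 18 months, against 4.93, 4.23 and 4.91 at 2 months. It was separate as well but under the controls in all 3 aged mice and 1 young mouse, so that neither a fold nor a bound is given. The third probe set was at or below the controls on every array. With 32 added to each intensity before the log, the Mcm6 difference was -1.79.

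Among the other ring subunits, Mcm7, with 8.36, 8.46 and 8.38 in aged mice against 8.19, 8.62 and 8.88 in young mice, differed by -0.16 (SE 0.21, interval -0.68 to 0.35). Its 4 probe sets, all above background, had differences between -0.51 and -0.11. Mcm2 differed by 0.31 (SE 0.36), Mcm3 by 0.23 (SE 0.38), Mcm4 by 0.30 (SE 0.34) and Mcm5 by -0.27 (SE 0.45). In each of these 5 genes the ages overlapped on the probe set that stood for the gene. The 2 probe sets of Mcm4, both above background, disagreed in sign, at 0.30 and -0.25, so that no direction can be given for Mcm4. One other probe set of Mcm3, 1449705_x_at, was separate in the opposite direction, with 5.498, 5.53 and 5.68 in aged mice against 5.40, 5.33 and 5.19 in young mice. Whether Mcm6 differed from the other subunits was not tested.

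The loader genes were measured less well. Cdt1 had 4.67, 5.94 and 6.81 at 18 months, against 3.38, 7.72 and 6.46 at 2 months. Its spread among the young mice (SD 2.23, n = 3) was far wider than its difference of -0.05 (SE 1.12). Cdc6 was not tested. It had 3.74, 2.22 and 4.70 in aged mice against 4.33, 4.01 and 3.83 in young mice, and it was above the bacterial controls in 1 aged mouse and in 0 young mice.

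Pcna, the sliding clamp of DNA polymerase, had log2 intensities of 10.92, 10.70 and 10.71 at 18 months, against 11.28, 10.66 and 10.99 at 2 months. The ages overlapped, and the difference was -0.20 (SE 0.21, interval -0.70 to 0.30, adjusted p = 0.871). Rrm1, the large subunit of the reductase that makes deoxynucleotides, had 8.23, 7.79 and 7.65 at 18 months, against 8.25, 8.14 and 7.98 at 2 months, a difference of -0.23 (SE 0.21). Another probe set of Rrm1, also above the controls on every array, differed by 0.22, so that no direction can be given for Rrm1. A further one was at or below the controls on every array. The small subunit gene Rrm2, which is made mainly in dividing cells, did not reach the filter, and none of its 3 probe sets was above the controls on all arrays. The thymidylate synthase gene Tyms was likewise not tested, with 4.39, 4.53 and 4.84 in aged mice against 4.35, 4.93 and 4.25 in young mice.

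Cdk1, the kinase of mitotic entry, had 7.62, 7.40 and 7.26 at 18 months, against 7.81, 7.73 and 7.66 at 2 months. All 3 aged mice were lower, by a small step: the difference was -0.30 (SE 0.17, interval -0.71 to 0.11, adjusted p = 0.778), or 1.23-fold. It was read by 1 probe set. With each array centred on its median the ages of Cdk1 overlapped. The cyclins that bind it were dim. Ccna2 differed by -0.05 (SE 0.27), and Ccnb2 was at or below the bacterial controls on every array.

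**Figure D2:**
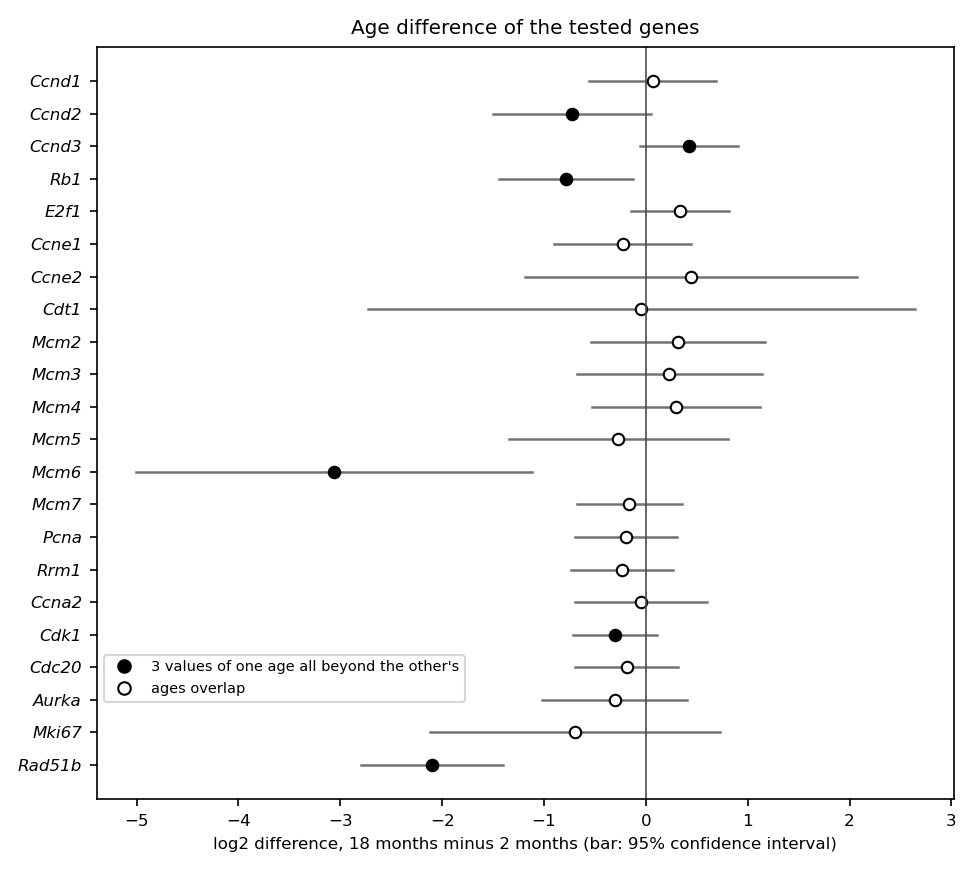
Log2 difference, 18 months minus 2 months, of the 22 tested genes with 95% confidence intervals from limma; filled points mark genes in which the 3 values of one age lie beyond the 3 of the other. The intervals of Rb1, Mcm6 and Rad51b do not include 0, while those of Cdt1 (-2.73 to 2.64) and Ccne2 (-1.18 to 2.07) are the widest among genes with overlapping ages.

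Genes of mitosis were dim. Of these 9 genes 3 were tested, and 4 were above the bacterial controls on every array (44.4%, against 67.5% of all genes). Aurkb and Bub1 were at or below them on every array, as were 3376 of all 18193 genes. Mki67, which encodes the proliferation antigen Ki-67, had 6.47, 6.14 and 4.43 at 18 months, against 6.95, 5.64 and 6.54 at 2 months. The ages overlapped, and the difference of -0.69 (SE 0.60, adjusted p = 0.848) rested on 18-month replicate 3, without which it was -0.07. Cdc20, an activator of the anaphase-promoting complex, differed by -0.19 (SE 0.21), and its 3 probe sets ran from -0.52 to 0.05. The spindle kinase gene Aurka had 5.45, 5.48 and 5.48 at 18 months, against 6.20, 6.005 and 5.12 at 2 months, a difference of -0.31 (SE 0.30).

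Among the mitotic genes too dim to be tested, Top2a and Bub1b had separate ages. Top2a, the topoisomerase that untangles chromosomes, had 4.28, 4.06 and 4.43 at 18 months, against 4.70, 4.66 and 4.47 at 2 months on its brightest probe set. A second one, 1454694_a_at, had 3.79, 4.12 and 3.79 at 18 months, all under the bacterial controls, and 4.73, 5.22 and 4.82 at 2 months, all above them. In the fit of all probe sets it differed by -1.02 (SE 0.20, unadjusted p = 0.00189, adjusted p = 0.544). Against the controls it was at least 1.31-fold higher at 2 months. Bub1b, a kinase of the spindle checkpoint, had 4.60, 4.24 and 4.24 at 18 months, all under the controls, and 4.79, 5.05 and 5.01 at 2 months, all above them, which is at least 1.34-fold higher at 2 months. The other probe sets of Bub1b overlapped in age and disagreed in sign, at -0.43 and 0.12, and neither was above the controls on every array. The bound is for its brightest probe set only. Birc5 (survivin) and Plk1, a mitotic kinase, had overlapping ages, with differences of -0.10 and 0.06.

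The number of the 32 genes above the highest bacterial control of their array was 20, 21 and 26 on the 18-month arrays, against 25, 24 and 28 on the 2-month arrays. These counts overlapped. The share of all genes above it was 72.7%, 72.7% and 77.5% at 18 months, against 74.9%, 72.8% and 77.8% at 2 months.

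**Figure D3:**
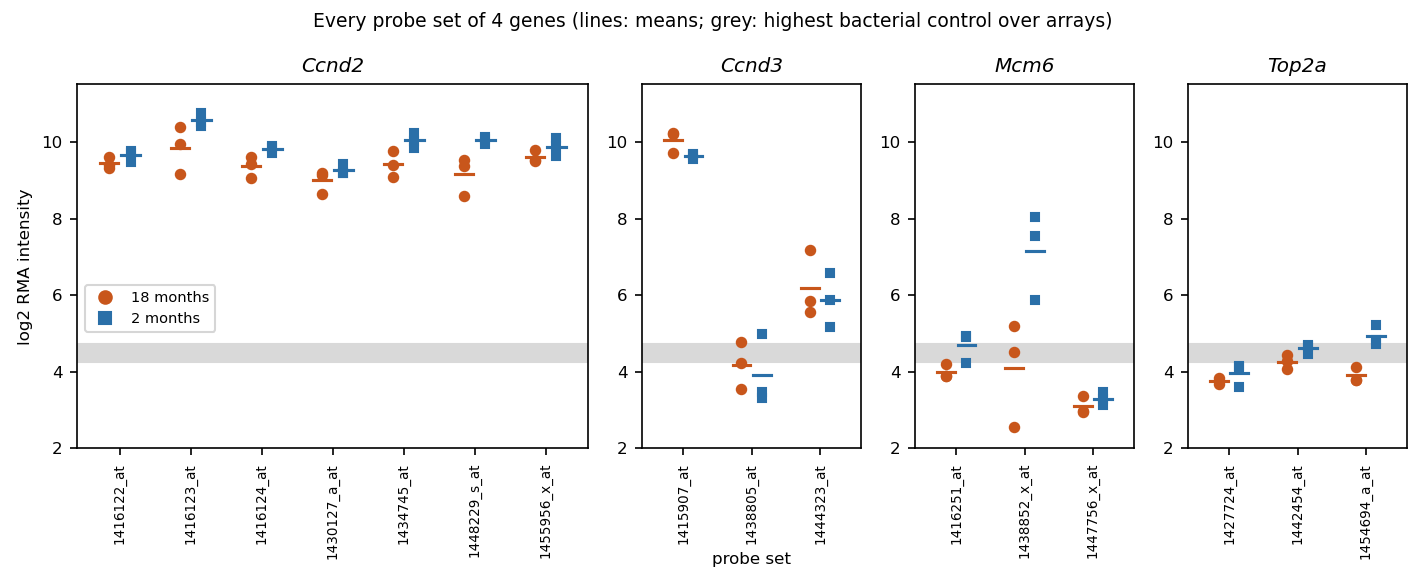
Log2 intensity of every probe set of Ccnd2, Ccnd3, Mcm6 and Top2a (orange circles, 3 mice at 18 months; blue squares, 3 mice at 2 months; short lines, means of 3 mice; grey band, highest bacterial control of the 6 arrays). The mean at 18 months is below that at 2 months in all 7 probe sets of Ccnd2 and above it in all 3 of Ccnd3; for Mcm6 only 1438852_x_at shows the wide gap.

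Rad51b, which takes part in repair of broken replication forks and DNA breaks, had log2 intensities of 4.31, 4.32 and 3.79 at 18 months, against 6.17, 6.75 and 5.82 at 2 months. All aged mice were under the bacterial controls and all young mice above them. The fitted difference was -2.10 (SE 0.29, interval -2.80 to -1.41, unadjusted p = 0.000228, adjusted p = 0.185), the smallest p of the 22 genes. With the values at 18 months known only as a bound, the level at 2 months was at least 3.28-fold higher. A second probe set, 1430486_at, was at or below the controls on every array. Leaving out any 1 mouse kept the difference between -1.85 and -2.31, with limma adjusted p between 0.232 and 0.491. With 32 added to each intensity before the log it was -1.12.

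Other genes of the same processes were taken from 4 lists, none of which had a gene past the threshold. Of 57 mitosis genes 24 were tested: 13 were above 0 and 11 below, with a median of 0.03, and 12 of the 57 were at or below the bacterial controls on every array. Kif23, a motor of the cleavage furrow, had the smallest p among them, with 4.90, 4.99 and 5.41 in aged mice against 5.89, 6.07 and 6.21 in young mice. Its ages were separate and the difference was -0.96 (SE 0.21, adjusted p = 0.443). Incenp, the scaffold of Aurora B, differed by 0.91 (SE 0.36), the condensin genes Smc2 and Ncaph by 0.81 (SE 0.40) and 0.97 (SE 0.53). Smc2 and Ncaph reached the brightness filter only through their values at 18 months. Their means were 5.45 and 5.51 at 18 months, against 4.64 and 4.54 at 2 months.

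DNA replication genes were better measured, with 44 of 50 tested and 42 above the bacterial controls on every array. Of the 44 tested, 23 were above 0 and 21 below, with a median of 0.01, and 6 had separate ages, 13.6% against 13.3% of all genes. Rpa3, the small subunit of the single-strand binding protein, had 8.55, 7.97 and 7.97 at 18 months, against 8.88, 8.76 and 8.97 at 2 months (difference -0.71, SE 0.22, adjusted p = 0.622). Gins1, a helicase cofactor, reached the brightness filter only through its values at 18 months, with 5.01, 5.39 and 6.53 in aged mice against 4.28, 4.31 and 4.66 in young mice, 1 of which was above the controls (difference 1.23, SE 0.40, adjusted p = 0.644). Atad2 differed by -0.47 (SE 0.21). The clamp loader gene Rfc3 differed by -1.20 (SE 0.63) and had overlapping ages. Rfc3 reached the filter only through its values at 2 months, of 7.38, 6.01 and 4.67, against 4.82, 4.88 and 4.78 at 18 months.

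Of 28 tested genes for cyclin-dependent kinases, their inhibitors and the pocket protein and E2F family, 18 were above 0 and 10 below, with a median of 0.08, and 0 had an unadjusted p under 0.05. The 4 with the smallest p were Lin54 (0.78, SE 0.34) and the E2F partner gene Tfdp2 (0.32, SE 0.18), both with separate ages, then Lin52 (0.42, SE 0.27) and the mitotic brake kinase gene Wee1 (0.62, SE 0.41). Lin54 and Lin52 encode parts of the complex that represses cell cycle genes in resting cells. Among 12 tested genes of homologous recombination, the pathway of Rad51b, 3 were above 0 and 9 below, with a median of -0.18. Rad54l, a motor protein of this pathway, had 5.12, 4.999 and 4.82 at 18 months, against 6.002, 5.98 and 5.19 at 2 months (difference -0.74, SE 0.26, adjusted p = 0.682). Rad51d, a gene of the same pathway, differed by 0.75 (SE 0.34), the breast cancer genes Brca1 by -0.65 (SE 0.38) and Brca2 by 0.62 (SE 0.54). Brca1 reached the brightness filter only through its values at 2 months, with a mean of 5.32 against 4.67 at 18 months.

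**Figure D4:**
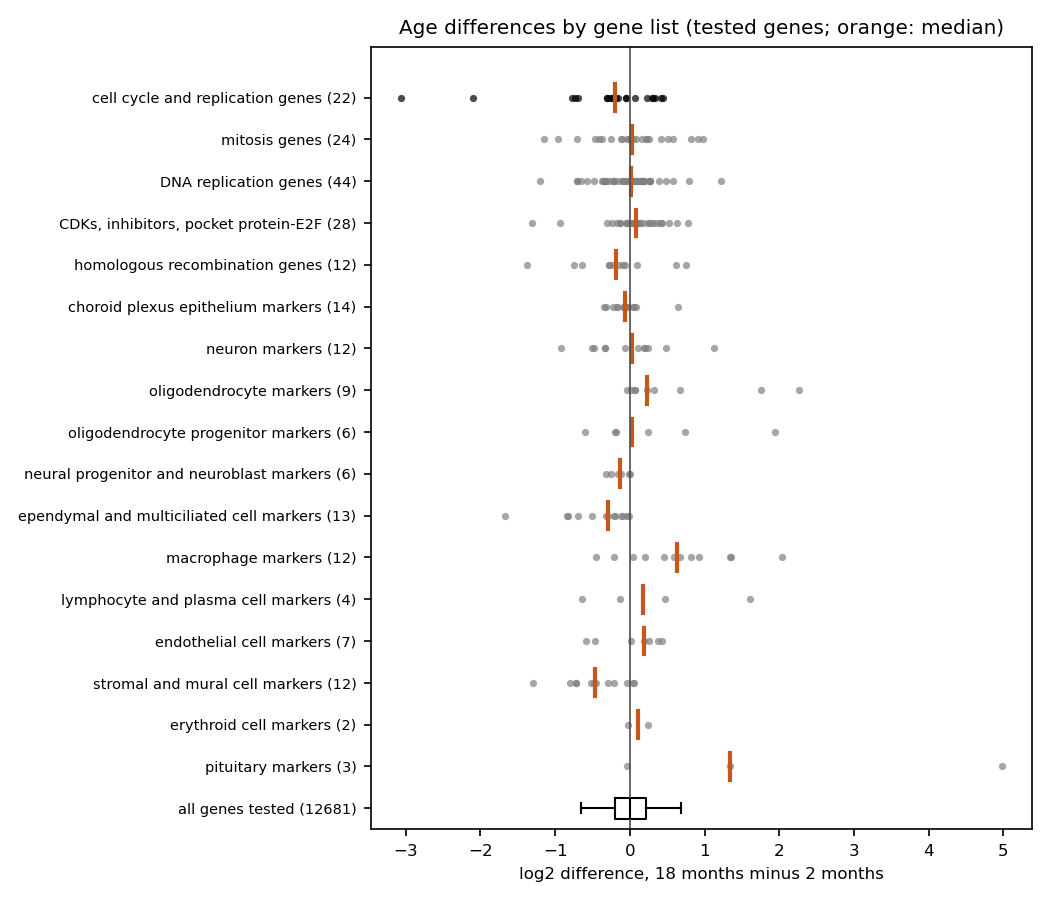
Log2 differences, 18 months minus 2 months, of the tested genes of each list (points; orange line, median; number of tested genes in brackets), with all 12681 genes tested as a box at the bottom (box, 25th to 75th percentile; whiskers, 5th to 95th percentile, -0.65 to 0.69). The 22 cell cycle and replication genes have a median of -0.19, and the mitosis and DNA replication lists lie at 0.03 and 0.01.

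Markers of other cell types also differed in level between the mice, and their part in the values above was not tested. Multiciliated and ependymal markers were lower at 18 months for 13 of 13 tested genes (median -0.29; mean level 8.26 to 8.31 at 18 months and 8.65 to 8.84 at 2 months). Stromal and mural markers were lower for 10 of 12 (median -0.47; mean level 7.504 to 7.997 at 18 months and 8.054 to 8.222 at 2 months). Macrophage markers were higher for 10 of 12 (median 0.63; mean level 7.84 to 8.25 at 18 months and 7.23 to 7.71 at 2 months). Neuron markers varied from mouse to mouse at both ages, with mean levels of 6.43, 7.19 and 8.41 at 18 months against 7.24, 6.60 and 8.27 at 2 months. With that mean as a covariate the differences of Ccnd2, Rb1, Mcm6, Cdk1 and Rad51b were -0.74, -0.78, -3.06, -0.30 and -2.11. The neuron mean averaged 7.35 at 18 months and 7.37 at 2 months, so that this covariate could hardly move an age difference. No other marker list was used as a covariate. Markers of neural progenitors and neuroblasts, which divide in the wall of the lateral ventricle, were below 0 for 6 of 6 tested genes (median -0.14), and 6 of the 11 on the array were above the bacterial controls on every array. Oligodendrocyte markers were above 0 for 8 of 9 (median 0.23), and those of oligodendrocyte progenitors for 3 of 6 (median 0.03). Pituitary markers were above 0 for 2 of 3, with a mean level of 7.68 to 8.81 at 18 months and 5.95 to 6.54 at 2 months. Among them the growth hormone gene Gh had 10.40, 10.18 and 9.08 at 18 months, against 4.65, 5.63 and 4.44 at 2 months (difference 4.98, SE 0.45, limma adjusted p = 0.0540). Endothelial markers were above 0 for 5 of 7, lymphocyte and plasma cell markers for 2 of 4 and erythroid markers for 1 of 2. Choroid plexus epithelial markers were above 0 for 4 of 14 (median -0.07). Separate ages were found for 5 of these 14 (35.7%, 4 lower at 18 months and 1 higher), against 13.3% of all genes. The share was 33.3% for stromal and for macrophage markers, and 0 for neuron and for endothelial markers. Of the 14 multiciliated markers on the array 12 were above the bacterial controls on every array, as were 11 of 12 stromal, 11 of 14 macrophage and 11 of 12 neuron markers. No gene of any of these lists passed the threshold as fitted here. Gh passed it under 6 alternative settings, with limma adjusted p between 0.0140 and 0.0497 in them, and over all alternatives with this gene list its adjusted p ran from 0.0140 to 0.368.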

How the data were processed

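The authors deposited 1 table of linear intensities for 45101 probe sets on 6 arrays, which run from 2.47 to 26821. They were made with RMA (background correction, normalization between arrays, summary of probes), per the submitters' processing notes; the version is not given in the sources used here. A miRNeasy extraction and a Nugen Pico amplification preceded labelling, per the labels' protocols. No batch is given in the labels, and the number of arrays limits the precision.

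Log2 values were taken. Of 45037 probe sets that are not controls, 34945 carried 1 symbol in the platform annotation, 932 several and 9160 none; 0 symbols changed against RefSeq (GRCm38.p6). Genes were fitted with limma 3.58.1 in R 4.3.3 (two-sided, no covariates), after a test on simulated data, with Benjamini-Hochberg adjustment over 12681 genes and a threshold of 0.05. Spreads are SD, errors SE from the fit. Bounds set the dim age at the highest bacterial control of each array, where its values were lower. The cell cycle genes (members) and the other lists were chosen with earlier results of these data known. The text names every member and up to 4 genes of each cell cycle list with the smallest p; the same rule covers the marker lists, of which counts are given and only Gh, beside the tissue check Ttr, is named. Alternatives in filter, probe set rule, scaling, prior, weights, covariate and left-out mice are given at the end.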

Additional observations from a re-analysis of the deposited data

How the results depend on the processing

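The count of listed cell cycle genes (members) past an adjusted p of 0.05 was 0 under every alternative tried. Over all genes the count was 0 as reported, 4 with array weights and also 4 when the filter was set at the 60th percentile, 5 with the mean of all probe sets or with arrays centred on their medians, 2 with an intensity trend in the prior and 1 with the neuron covariate. It was also 1 when every probe set was fitted, a setting chosen after seeing the data, as was the restriction to genes bright enough at both ages. With no filter, 32 added to each intensity, quantile normalization, or any 1 mouse left out it was 0. Members with separate ages numbered 6 of 22 as reported (27.3%, against 13.3% of all genes). They numbered 3 of 17 with the mean of all probe sets (17.6%, against 13.3%). With quantile normalization they numbered 5 of 22 (22.7%, against 13.3%), 4 of them lower at 18 months. With arrays centred they numbered 4 of 22 (18.2%, against 12.4%), where Cdk1 and Ccnd3 were no longer separate. Without 1 mouse, where fewer values make separation more frequent, they numbered 7 to 9, or 31.8% to 40.9%, against 22.0% to 24.9% of all genes. The median difference of the members stayed between -0.22 and -0.13 without 1 mouse.

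Of the 22 tested members 12 kept their sign under every alternative in which they were fitted, 11 of them below 0 and Ccnd3 above. The sign is that of the gene's value under each alternative, not of each of its probe sets. Of these 12, Mcm6, Rad51b, Aurka, Cdc20 and Mki67 had no value under 1 or 2 alternatives, since they missed the 60th percentile filter or the filter on the mean of all probe sets. With the mean of all probe sets Ccnd1 turned to -0.16, E2f1 to -0.14 and Atad2 to 0.0091, and with array weights Cdt1 turned to 0.42. The mean of all probe sets also brought Rfc3 to -0.09, Incenp to 0.36 and Mcm4 to 0.02. Leaving out 1 mouse moved Ccnd1 between -0.13 and 0.25, Ccne1 between -0.48 and 0.0030, Ccne2 between -0.41 and 0.87, Cdt1 between -1.28 and 0.89 and Ccna2 between -0.29 and 0.21. It moved Mcm2 between -0.021 and 0.60, Mcm3 between -0.0077 and 0.60, Mcm4 between -0.014 and 0.54 and Mcm5 between -0.68 and 0.20. The cause was not tested.

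The labels do not say whether mice with the same replicate number at both ages were handled together. Their deviations from the age means correlated at -0.02, 0.02 and 0.17, against -0.15 to 0.14 for mice with different numbers. At each age replicate 3 had the lowest bacterial maximum (4.29 at 18 months, 4.25 at 2 months) and the highest mean level of neuron markers (8.41 and 8.27). Whether these mice shared a batch was not tested. With the replicate block 0 genes and 0 members passed, and the adjusted p of Rad51b was 0.474. Dim members are limited by background: 19 of 32 were above the bacterial controls on every array (59.4%, against 67.5% of all genes).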
